A study of Macaca mulatta with 33 samples.

Results

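CYP17A1, CYP19A1 and HSD17B4 are genes named for steps of androgen and estrogen metabolism, described here in rhesus macaque corpora lutea profiled on Affymetrix Rhesus Genome arrays. They are 3 of 14132 genes that the deposited table names by a probe set with a single symbol. Every such probe set of these genes was taken, which gave 6 of 52766 probe sets: 2 for CYP17A1, 1 for CYP19A1 and 3 for HSD17B4. Tests were run on probe sets with a value over 6.18, the overall median, on 4 or more arrays, and 4 of the 6 met this. The second CYP17A1 probe set (3.88 to 4.69 on the log2 scale) and the third of HSD17B4 (4.22 to 5.02) lay below that median on every array and are not described further.

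The tissue came from adult, cycling females. From luteal day 9 the treated animals were given human chorionic gonadotropin (hCG), the luteal stimulus of early pregnancy, at doses that increased. Tissue of day 15, after 6 days of hCG, came from 4 samples with hCG, trilostane (TRL) and the synthetic progestin R5020, 4 with hCG and TRL, and 4 with hCG alone, the last on 5 arrays. Tissue of day 10, after 1 day of hCG, came from 4 samples of each of the same treatments, and untreated tissue of day 10 gave 8 samples. Trilostane inhibits 3-beta-hydroxysteroid dehydrogenase (3BHSD), the enzyme that makes progesterone, and R5020 supplies a progestin where that synthesis is blocked. Untreated day 15 tissue was not analysed here, so 6 days of hCG and the later luteal day cannot be told apart in any comparison with untreated tissue. The labels do not say that each sample came from a separate animal, and the p-values measure only the spread between these samples.

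Androgens and estrogens are made from progestogens in a short chain. CYP17A1 is the 17-alpha-hydroxylase and 17,20-lyase that turns pregnenolone and progesterone into androgen precursors, and in the primate corpus luteum it is known from theca-lutein cells. CYP19A1 is aromatase, which turns androgens into estrogens, and it is known from granulosa-lutein cells. HSD17B4 bears the name of the 17-beta-hydroxysteroid dehydrogenases, but the reaction for which it is named oxidises estradiol to estrone, and it is mainly known as the bifunctional enzyme that hydrates and then dehydrogenates enoyl-CoA in peroxisomal fatty acid oxidation. The 3 genes are therefore not 1 pathway in the strict sense, and transcripts were measured here, not steroids.

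The arrays fall into 3 array sets by their names (16, 14 and 3 arrays), and set was a term of every fit. Day 15 hCG replicates 3 and 5 carry 1 sample number and differed by an SD of 0.201 over the tested probe sets, against a median of 0.476 over 528 array pairs, so they were averaged into 1 sample. Replicate 4 of day 15 hCG with TRL and R5020 and replicate 4 of day 15 hCG with TRL, which belong to different groups, were as near to each other (SD 0.192). Leaving out these nearly identical arrays ended no call on the 3 genes. Luteal markers were present in every group. The cholesterol carrier STAR lay between 14.42 and 14.89 over all samples, while of 6 theca markers only CYP17A1 and STAR passed the filter, TCF21 and PTCH1 did not, and INSL3 and LHCGR had no probe set with 1 symbol. Values below are log2 intensities centred on each array's median, and levels of different probe sets are not compared.

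CYP17A1 was higher in tissue exposed to hCG. Of 24 samples from the 6 hCG groups, 21 lay above the highest untreated sample. With 6 days of hCG alone the arrays read 10.76, 10.60, 10.21, 11.02 and 10.23. With 1 day of hCG alone they read 9.27, 10.03, 10.47 and 10.45. The 8 untreated arrays had a lowest value of 7.98, a median of 8.79 and a highest of 9.39. All day 15 samples of hCG alone thus lay above every untreated sample, and 3 of 4 day 10 samples did so, replicate 1 falling inside the untreated range. How many other probe sets separate hCG from untreated samples in this way was not counted. In these comparisons 18% (6 days) and 19.9% (1 day) of all probe sets had an unadjusted p under 0.05 (limma). In whole tissue, a larger share of CYP17A1-expressing cells and more transcript in each such cell cannot be told apart.

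CYP17A1 rose 3.96-fold after 6 days of hCG, a log2 change of 1.99 ± 0.39 (SE, limma, adjusted p = 0.00255), in a comparison where 5.04% of all 28867 probe sets passed. It averaged 10.65 ± 0.34 (SD, n = 4) with 6 days of hCG and 8.80 ± 0.46 (SD, n = 8) in untreated tissue. After 1 day it rose 2.61-fold, a log2 change of 1.38 ± 0.40 (adjusted p = 0.0453), where 4.68% of probe sets passed, with an average of 10.05 ± 0.56 (SD, n = 4) in the hCG samples. Within array set 1 the changes were 2.04 ± 0.27 for 6 days (adjusted p = 0.00105) and 1.44 ± 0.27 for 1 day (adjusted p = 0.0125). That fit holds the same day 10 and day 15 samples of hCG alone, with the 4 untreated samples of set 1. Its values are therefore not independent of the main ones. The 1 day call sits at the threshold: it was lost without any 1 of day 10 hCG replicates 2, 3 and 4 or untreated replicates 1, 3, 4 and 6 (log2 changes of 1.17 to 1.45, adjusted p from 0.0505 to 0.165). The 6 day call was kept in all 12 fits that each left out 1 sample, with log2 changes from 1.79 to 2.18. The difference between 6 days and 1 day was 0.60 ± 0.41 and did not pass (adjusted p = 0.426, 6.62% of probe sets passing), with a 95% interval from -0.24 to 1.45.

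**Figure D1:**
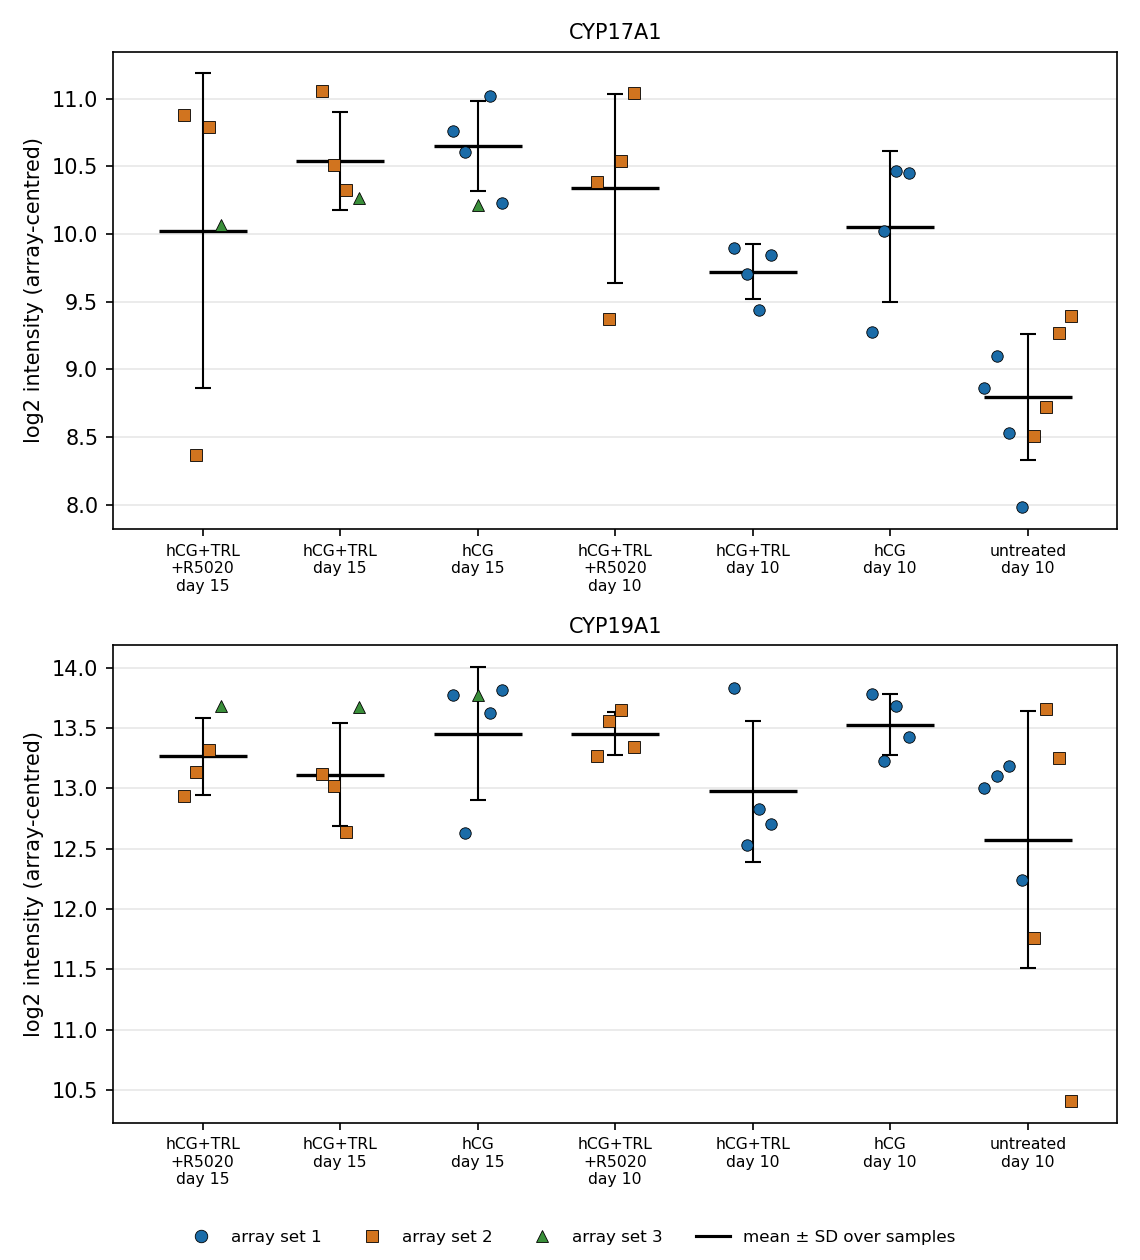
Log2 intensity (array-centred) of CYP17A1 (top) and CYP19A1 (bottom) on every array, by group, with colour and shape marking the array set and black bars the mean ± SD over samples. For CYP17A1 the untreated arrays end at 9.39 and most hCG arrays lie above that, with 1 low array of hCG, TRL and R5020 at day 15 (8.37). For CYP19A1 the groups overlap and the untreated arrays spread down to 10.41.

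Steroid ablation left CYP17A1 without a detectable change. At day 15, hCG with TRL gave 11.06, 10.51, 10.32 and 10.27, of which all but replicate 1 lay within the range of hCG alone, and the log2 change against hCG alone was -0.30 ± 0.53 (adjusted p = 0.957). At day 10, hCG with TRL gave 9.90, 9.71, 9.44 and 9.84, all within the range of hCG alone, with a log2 change of -0.33 ± 0.41 (adjusted p = 0.791). The 95% intervals, -1.38 to 0.79 at day 15 and -1.17 to 0.50 at day 10, do not show that TRL left the gene as it was. The background of these comparisons was itself near 0: 0% of probe sets passed at day 15 and 0.00346%, a single probe set, at day 10, with 1722 and 3616 probe sets under an unadjusted p of 0.05. The day 15 groups share only array set 3, where 1 array each read 10.27 with TRL and 10.21 with hCG alone. The TRL effect did not differ detectably between day 15 and day 10 (difference of 0.04 ± 0.67, adjusted p = 1).

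Adding R5020 gave no detectable change of CYP17A1 at either day. At day 15, hCG with TRL and R5020 gave 10.88, 8.37, 10.79 and 10.07, and the log2 change against hCG with TRL was -0.51 ± 0.41 (adjusted p = 1, 0% of probe sets passing). Replicate 2, at 8.37, is the lowest of all hCG samples, and without it the change was 0.09 ± 0.32. In that sample STAR read 14.76, within its group's range of 14.64 to 14.89, and the inhibin subunit INHA read 13.74, the highest of its group. Its endothelial, fibroblast and macrophage marker means (10.78, 10.81 and 9.58) were also the highest of the group. Its granulosa, pericyte, lymphocyte, red cell and epithelial marker means lay within the range of the group's other samples. The part of these values in the low CYP17A1 reading was not tested. At day 10, hCG with TRL and R5020 gave 10.39, 9.38, 10.54 and 11.04, a log2 change of 0.36 ± 0.56 against hCG with TRL (adjusted p = 1, 0% passing). These day 10 groups lie in different array sets and are linked only through the untreated arrays of both sets.

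Against untreated tissue, the CYP17A1 change was above 0 in each of the 4 steroid-ablated groups and passed the test in 1 of them. All 6 comparisons of this kind share the untreated samples and are not independent of each other. With TRL at day 15 the log2 change was 1.69 ± 0.41 (adjusted p = 0.0107, 8.26% of probe sets passing), a call lost without TRL replicate 1 (1.51 ± 0.46, adjusted p = 0.0508) and within array set 2 alone (1.66 ± 0.53, adjusted p = 0.0899). Without the nearly identical arrays it was 1.66 ± 0.44 (adjusted p = 0.0236). With TRL and R5020 at day 15 it was 1.18 ± 0.41 (adjusted p = 0.124, 3.15% passing), or 1.86 ± 0.33 without replicate 2 (adjusted p = 0.00377), and it passed with no array set term (1.23, adjusted p = 0.0286) or set as a random block (1.22, adjusted p = 0.0414). With TRL at day 10 it was 1.05 ± 0.40 (adjusted p = 0.184, 2.58% passing). With TRL and R5020 at day 10 it was 1.42 ± 0.40 (adjusted p = 0.0896, 1.11% passing), or 1.74 ± 0.41 without replicate 2 (adjusted p = 0.042), and it passed with no array set term (1.54, adjusted p = 0.013) or set as a random block (1.49, adjusted p = 0.0289). For each R5020 group the other 9 of 11 alternative fits did not pass, nor did 11 of 12 fits that left out 1 sample. A fit with no array set term leaves differences between array sets in the change. With TRL at day 15, 6 of 7 macrophage markers were higher than in untreated tissue (median log2 change 1.06), where 4.48% of all genes rose and 5.29% fell. Their mean level ran from 8.08 (replicate 4) to 10.37 in the TRL samples and from 8.19 to 9.76 in the untreated samples. In the same comparison pericyte and smooth muscle markers were lower in 2 of 4 (median -0.56) and surface and epithelial markers in 1 of 3 (median -0.99). Of 5 fibroblast markers 1 was higher and 1 lower. Against hCG alone at day 15 none of these markers passed, where 0% of all genes did. The part of these markers in the CYP17A1 result was not tested. A contrast chosen after the data were seen, the mean of the 6 hCG groups against untreated tissue, gave 1.45 ± 0.24 (adjusted p = 0.000197, 9.26% of probe sets passing). It kept its call in all 32 fits that left out 1 sample and in 9 of 10 alternative fits. The exception, a replicate block, also ended the call with TRL at day 15.

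By mean level CYP17A1 ran from hCG alone at day 15 (10.65), hCG with TRL at day 15 (10.54), hCG with TRL and R5020 at day 10 (10.34), hCG alone at day 10 (10.05), hCG with TRL and R5020 at day 15 (10.03) and hCG with TRL at day 10 (9.72) to untreated tissue (8.80). Among neighbours in that order, only the last pair, hCG with TRL at day 10 and untreated tissue, had ranges that did not overlap. Other probe sets with such a gap were not counted, and 15% of all probe sets had an unadjusted p under 0.05 between these groups (limma).

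CYP19A1 did not pass the test in any comparison. With 6 days of hCG alone the arrays read 13.77, 12.63, 13.77, 13.62 and 13.81. With 1 day of hCG alone they read 13.79, 13.22, 13.69 and 13.42. The untreated arrays had a lowest value of 10.41, a median of 13.05 and a highest of 13.66. Most untreated arrays therefore lay close to the hCG groups, and 3 of them lay lower: replicate 9 at 10.41, replicate 6 at 11.76 and replicate 4 at 12.24. The range of the untreated group, 3.25 on the log2 scale or 9.53-fold, was wider than that of any hCG group.

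CYP19A1 averaged 13.46 ± 0.55 (SD, n = 4) with 6 days of hCG, 13.53 ± 0.25 (SD, n = 4) with 1 day and 12.58 ± 1.07 (SD, n = 8) in untreated tissue. The log2 changes were 0.58 ± 0.41 for 6 days (adjusted p = 0.499) and 0.68 ± 0.42 for 1 day (adjusted p = 0.382). The 95% intervals run from -0.26 to 1.42 and from -0.19 to 1.55. The CYP17A1 estimate after 6 days (1.99) lies outside the first, but its own interval (1.19 to 2.78) overlaps with it. The difference between the 2 genes was not tested. The 2 hCG times differed by -0.10 ± 0.44 (adjusted p = 0.927). Some other measurements also set untreated replicates 9, 6 and 4 apart, and others did not. The second tested HSD17B4 probe set read 9.34, 9.30 and 9.29 in them and 9.75 to 10.03 in the other 5 untreated samples. Their mean macrophage marker levels were 8.53, 8.19 and 8.39, against 8.85 to 9.76 in the other 5, and their fibroblast marker means 9.86, 9.87 and 9.71, against 10.11 to 11.04. The first HSD17B4 probe set read 10.84, 10.67 and 10.34 in these 3, against 10.47 to 10.96 in the other 5. Endothelial, pericyte, lymphocyte and granulosa marker means did not set all 3 apart. Replicate 4 was also the lowest untreated sample for CYP17A1 and STAR, whereas STAR in replicates 9 and 6 (14.48 and 14.60) and INHA in all 3 (13.33, 13.48 and 12.93) were not the lowest of the group. The part of these differences in the CYP19A1 values was not tested. None of the 5 other tested granulosa markers passed against untreated tissue after 6 days or 1 day of hCG. Of all genes, 4.08% rose and 2.06% fell after 6 days and 4.24% rose and 1.28% fell after 1 day, so this count is near those shares. The median change of these markers was 0.32 after 6 days and 0.09 after 1 day, against 0.04 and 0.06 over all genes. Between 6 days and 1 day, 1 of the 5 was higher, where 3.18% of all genes were. The mean level of the 5 markers was 10.04 to 10.68 with 6 days of hCG, 9.67 to 10.50 with 1 day and 9.81 to 10.41 in untreated tissue, ranges that overlap.

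TRL and R5020 also left CYP19A1 without a detectable change. At day 10, hCG with TRL gave 13.84, 12.53, 12.83 and 12.71, so that 3 of its 4 samples lay below every sample of hCG alone and 1 lay above all of them, and the log2 change was -0.55 ± 0.43 (adjusted p = 0.633). At day 15, hCG with TRL gave 13.12, 13.02, 12.64 and 13.67 and the change was 0.04 ± 0.56 (adjusted p = 0.995), a value whose sign turned when array set was not a term (-0.34). R5020 on top of TRL gave 12.94, 13.13, 13.32 and 13.69 at day 15, a change of 0.16 ± 0.43 (adjusted p = 1). At day 10 it gave 13.27, 13.56, 13.65 and 13.34, a change of 1.03 ± 0.59 (adjusted p = 1). That last value is across groups in different array sets and was 0.48 ± 0.44 when array set was not a term. As measured, the samples with R5020 lay above 3 of the 4 TRL samples and below the other. Against untreated tissue, CYP19A1 was 1.15 ± 0.42 higher with TRL and R5020 at day 10 (adjusted p = 0.246). Untreated replicates decided this value, which was 1.58 ± 0.40 without replicate 7 (adjusted p = 0.0423) and 0.55 ± 0.33 without replicate 9 (adjusted p = 0.644).

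**Figure D2:**
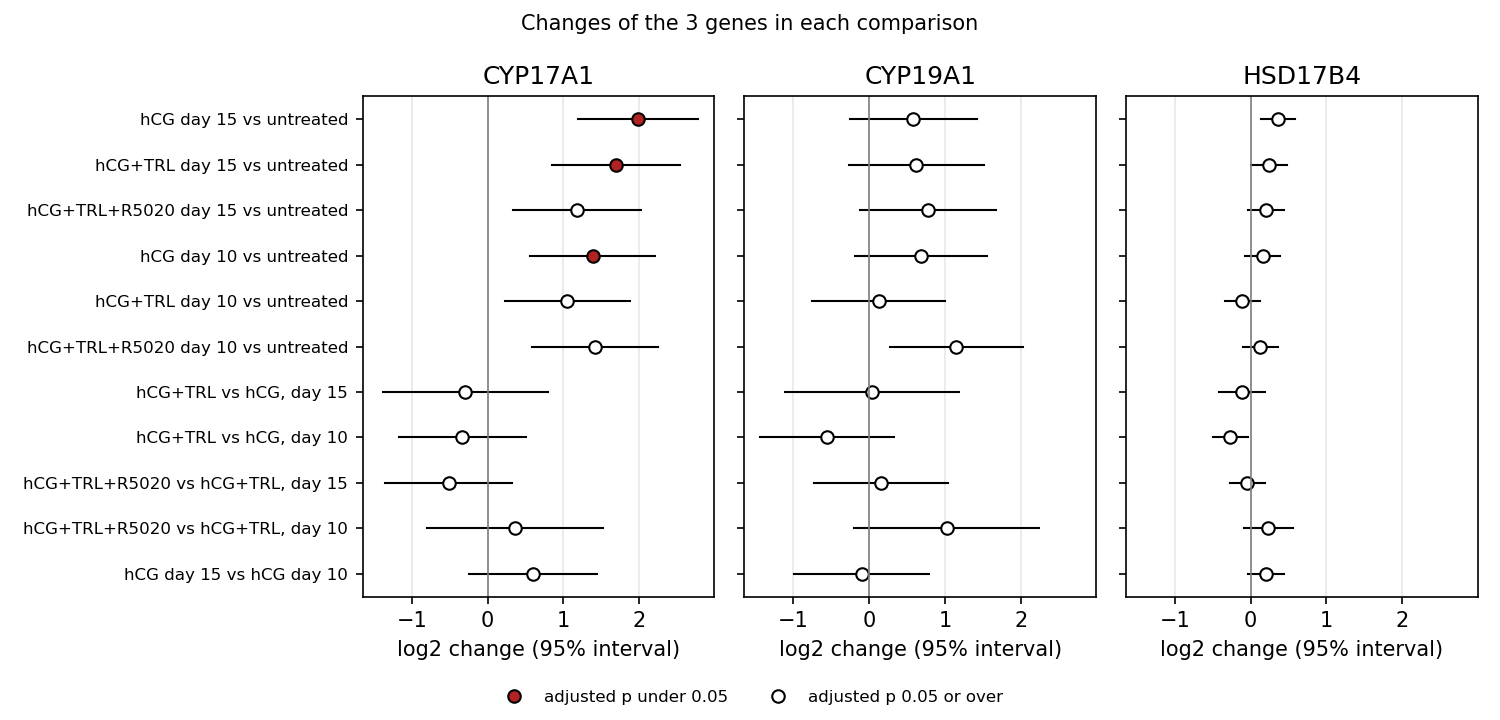
Log2 change with its 95% interval for CYP17A1, CYP19A1 and HSD17B4 (probe set with the higher mean) in 11 comparisons, the first-named group over the second. Filled points passed at an adjusted p under 0.05. Only CYP17A1 has filled points, after 6 days of hCG (1.99), with TRL at day 15 (1.69) and after 1 day of hCG (1.38), and the intervals of HSD17B4 are the narrowest.

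HSD17B4 was the least variable of the 3 genes and moved by small amounts. On the probe set with the higher mean, the arrays of 6 days of hCG alone read 11.02, 10.61, 10.95, 11.00 and 10.93. Those of 1 day of hCG alone read 10.62, 10.74, 10.68 and 10.66, and the untreated arrays had a lowest value of 10.34, a median of 10.62 and a highest of 10.96. Both groups overlap with untreated tissue, and the day 15 hCG arrays lie at its top except replicate 2. The log2 change after 6 days was 0.36 ± 0.11 (adjusted p = 0.0531), just short of the threshold. It passed when both arrays of the repeated day 15 sample were counted (adjusted p = 0.0294) and without untreated replicate 7, untreated replicate 8 or day 15 hCG replicate 2 (adjusted p from 0.0209 to 0.0448). After 1 day it was 0.16 ± 0.11 (adjusted p = 0.454).

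The second kept HSD17B4 probe set changed less than the first after 6 days of hCG and overlapped with untreated tissue. It read 9.98, 9.39, 10.43, 10.09 and 10.29 with 6 days of hCG alone, against a lowest value of 9.29, a median of 9.77 and a highest of 10.03 in untreated tissue. Its log2 change was 0.20 ± 0.17 (adjusted p = 0.601), and over the 32 samples the 2 probe sets correlated at r = 0.501 after removal of the array set effect. The suffix of its name marks probes that can match more than 1 transcript, and which transcripts each probe set reads was not tested.

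The group of hCG with TRL at day 10 had the lowest mean of HSD17B4, 10.41 ± 0.11 (SD, n = 4). The samples of hCG with TRL read 10.50, 10.25, 10.44 and 10.45, against 10.62, 10.74, 10.68 and 10.66 with hCG alone, and the groups did not overlap. How many other probe sets also separate these groups was not counted, and 12.5% of all probe sets had an unadjusted p under 0.05 (limma). The change of -0.27 ± 0.11 did not pass over all probe sets (adjusted p = 0.329), in a comparison where all genes had a median change of -0.11. The second probe set changed by -0.33 ± 0.18 (adjusted p = 0.471). At day 15 hCG with TRL read 11.08, 11.09, 10.78 and 10.86, a change of -0.11 ± 0.15 against hCG alone (adjusted p = 0.938). With R5020 the samples read 11.11, 10.90, 10.79 and 10.85 at day 15 and 10.67, 10.85, 10.80 and 11.11 at day 10. The changes against hCG with TRL were -0.04 ± 0.11 at day 15 and 0.24 ± 0.16 at day 10 (adjusted p = 1 for both). With R5020 at day 10 every sample lay above every sample of TRL at day 10 as measured, though the groups overlapped after adjustment for array set. Between the days, HSD17B4 was 0.35 ± 0.16 higher with TRL at day 15 than with TRL at day 10 (adjusted p = 0.251, 2.42% of probe sets passing). These groups did not overlap either, in a comparison where 17.2% of probe sets had an unadjusted p under 0.05 (limma). The HSD17B4 difference was 0.54 ± 0.12 and passed when array set was not a term (adjusted p = 0.00342), and 0.46 ± 0.13 with set as a random block (adjusted p = 0.0324). More probe sets passed in both of those fits than with the fixed term. All TRL arrays of day 10 lie in array set 1 and those of day 15 in sets 2 and 3. With no set term, day and array set therefore cannot be told apart, and a random block separates them only in part. With TRL and R5020 the HSD17B4 difference was 0.07 ± 0.12 at day 15 over day 10 (adjusted p = 0.828, 2.4% passing).

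**Figure D3:**
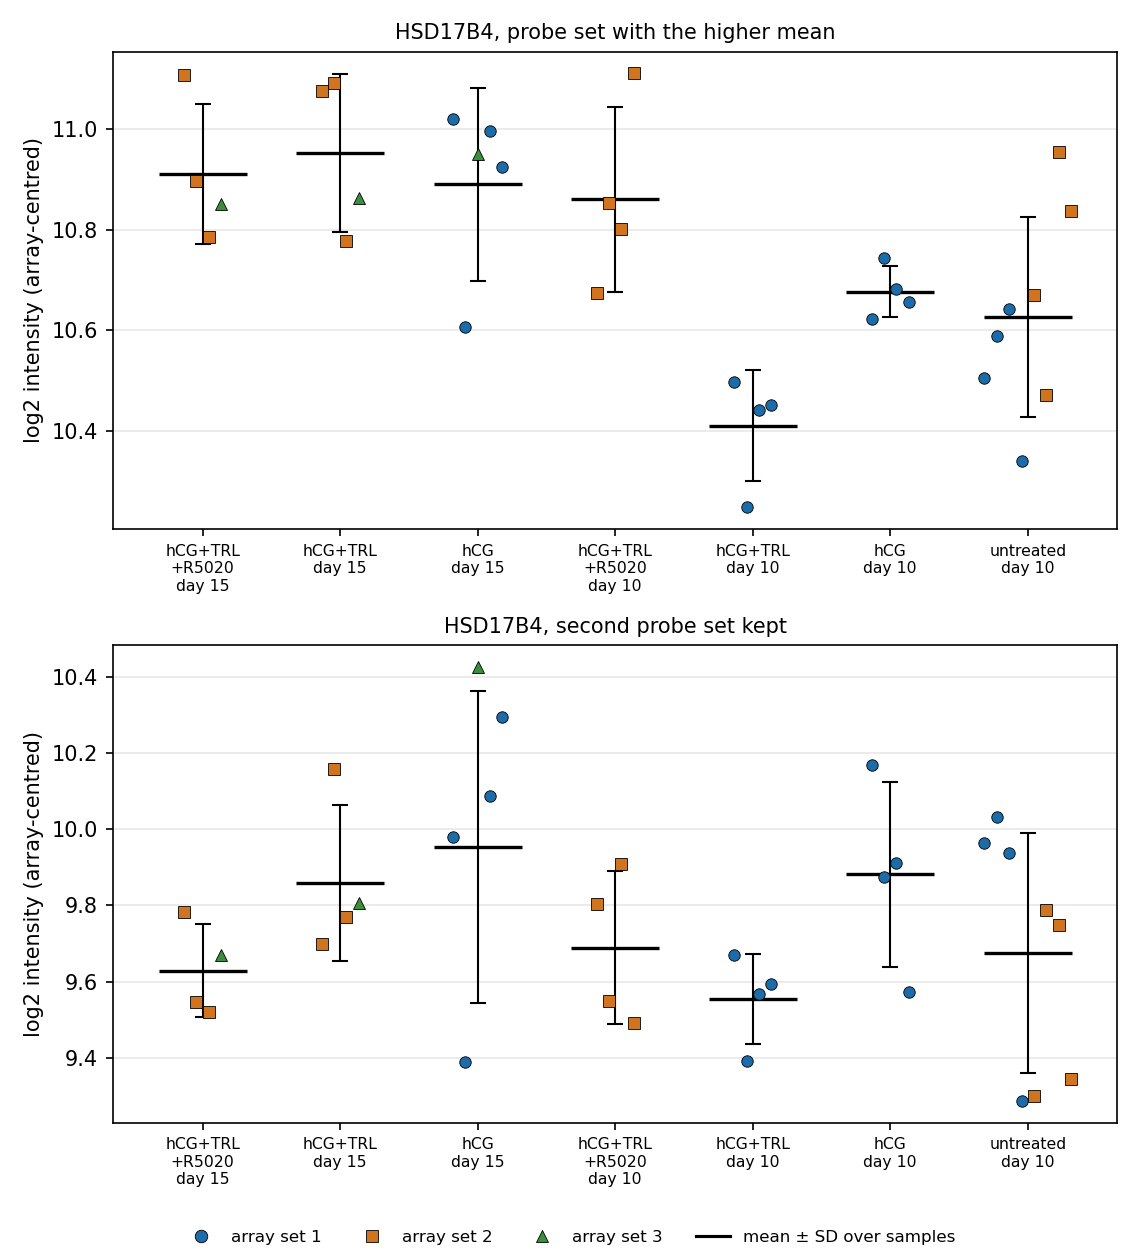
Log2 intensity (array-centred) of the 2 tested HSD17B4 probe sets on every array, by group, with colour and shape marking the array set and black bars the mean ± SD over samples. On the first probe set (top) the samples of hCG with TRL at day 10 lie between 10.25 and 10.50, below those of hCG alone at day 10. On the second (bottom) these groups overlap.

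The other enzymes of androgen and estrogen metabolism stayed mostly within the spread of the samples. Of 34 listed genes, 15 had a probe set with 1 symbol and 9 passed the filter on low values. After 1 day of hCG 1 of the 9 rose and none fell (median log2 change 0.20, against 0.06 over 10508 genes), where 4.24% of all genes rose and 1.28% fell. The gene that rose is HSD17B7, which reduces estrone to estradiol and also acts in cholesterol synthesis. It averaged 12.36 ± 0.37 (SD, n = 4) with 1 day of hCG and 10.72 ± 0.39 (SD, n = 8) in untreated tissue, a log2 change of 1.68 ± 0.26 (adjusted p = 0.000447), and its other 2 tested probe sets also rose (1.71 and 1.78). HSD17B1, the estradiol-forming enzyme of granulosa cells, changed by 0.05 (adjusted p = 0.89). After 6 days none of the 9 passed (median 0.05, with 4.08% of genes rising and 2.06% falling), and HSD17B7 was 1.00 ± 0.27 lower than after 1 day (adjusted p = 0.0221, lost without day 10 hCG replicate 3 or 4 or day 15 hCG replicate 2). PAPSS2, which makes the sulfate donor for steroid sulfation, did not pass after 6 days on the probe set with the highest mean (-0.07, adjusted p = 0.781), nor on 2 further ones (-0.22 and -0.05, adjusted p = 0.29 and 0.898), but fell by 1.88 on the remaining one (adjusted p = 0.000456).

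CYP17A1 and CYP19A1 are microsomal P450 enzymes that receive electrons from the reductase POR, and cytochrome b5 (CYB5A) promotes the lyase reaction of CYP17A1. Of 7 tested genes for electron donors and earlier steps, each read on its brightest probe set, 2 passed as higher after 1 day of hCG and none as lower, where 4.24% of all genes rose and 1.28% fell. For 1 of the 2, POR, other probe sets went the other way. The POR change was 0.66 ± 0.16 (adjusted p = 0.0162), and CYB5A rose by 0.57 ± 0.15 (adjusted p = 0.0259). CYB5A averaged 13.69 ± 0.11 (SD, n = 4) with 1 day of hCG and 13.07 ± 0.16 (SD, n = 8) in untreated tissue. The CYB5A call was kept in 7 of 12 fits that left out 1 sample, and a second CYB5A probe set rose by 0.66 (adjusted p = 0.0113). The POR call rests on the brightest of 4 probe sets: the other 3 changed by -0.29 to -0.45 after 1 day, and 1 of them fell by 0.42 (adjusted p = 0.0354), so the direction of POR is uncertain.

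After 6 days of hCG 2 of these 7 genes, STAR and POR, passed as higher and 1 as lower, where 4.08% of all genes rose and 2.06% fell. STAR rose by 0.30 ± 0.05 (adjusted p = 0.000695). It averaged 14.78 ± 0.04 (SD, n = 4) with 6 days of hCG and 14.52 ± 0.08 (SD, n = 8) in untreated tissue, near the table's highest value of 15.12. POR was higher on the same probe set (0.81 ± 0.15, adjusted p = 0.00202), while its other 3 changed by -0.13 to -0.36 and did not pass. HSD3B2, the 3BHSD that trilostane inhibits, fell by 1.00 ± 0.28 (adjusted p = 0.0318, kept in 7 of 12 fits that left out 1 sample), to 12.32 ± 0.44 (SD, n = 4) with 6 days of hCG, against 13.41 ± 0.27 (SD, n = 8) in untreated tissue. At 6 days CYP17A1 was thus higher and HSD3B2 lower than in untreated tissue. Against hCG for 1 day, HSD3B2 fell by 1.45 ± 0.29 (adjusted p = 0.00297) and FDXR, the reductase that serves the mitochondrial P450 enzymes, by 0.68 ± 0.17 (adjusted p = 0.0164).

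**Figure D4:**
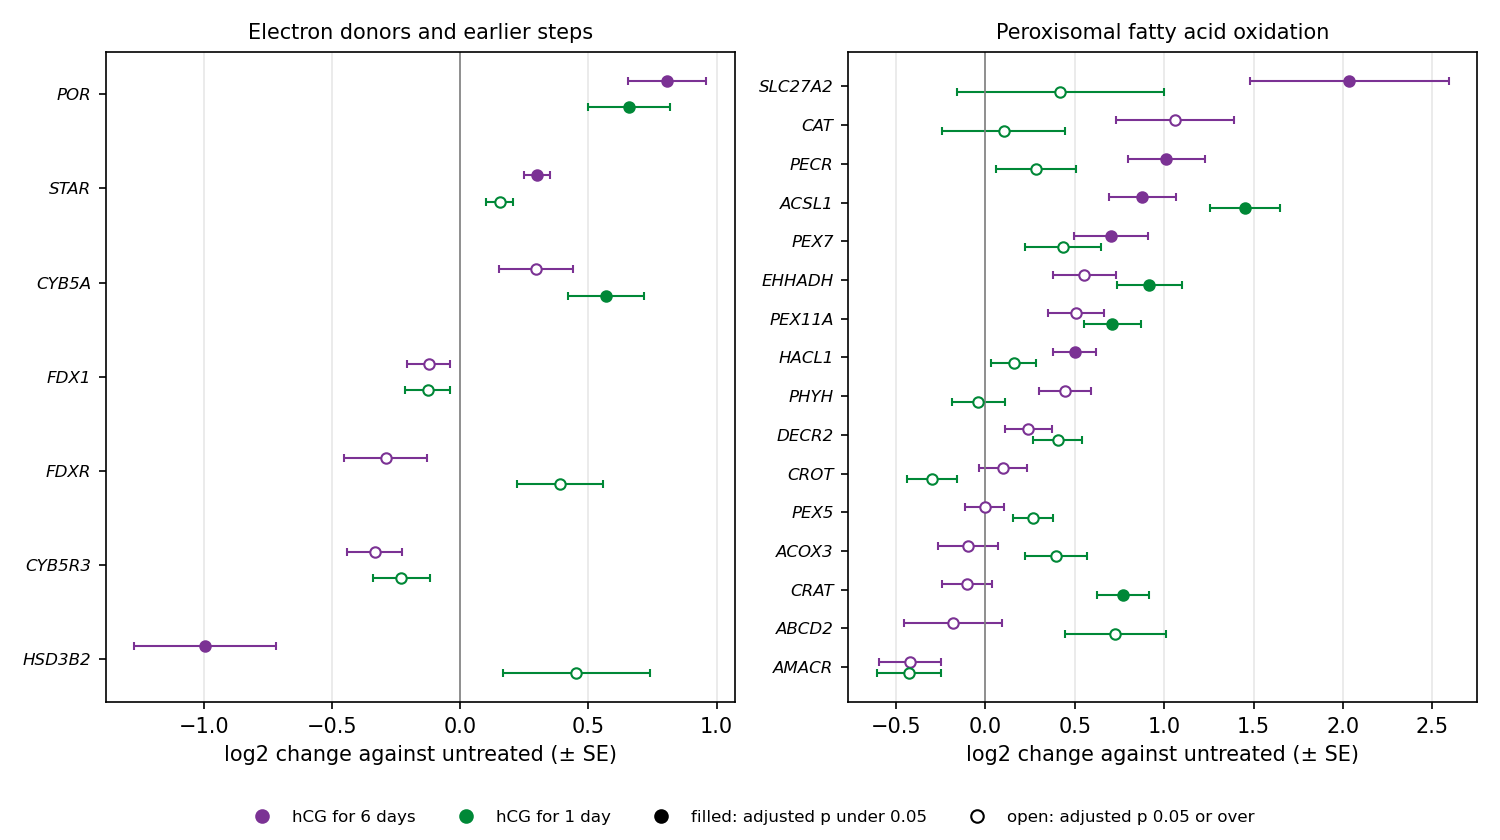
Log2 change against untreated tissue (± SE) after 6 days and 1 day of hCG alone, for the tested genes of electron donors and earlier steps (left) and of peroxisomal fatty acid oxidation (right). Filled points passed at an adjusted p under 0.05. After 6 days HSD3B2 is the filled point below 0, ACSL1 is filled at both times, and SLC27A2 has the largest change after 6 days (2.04) with the widest error.

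Among transcription factors known to act on CYP17A1 or CYP19A1, 2 fell after 6 days of hCG. Of 12 tested on their brightest probe sets, none passed after 1 day, where 4.24% of all genes rose and 1.28% fell, and after 6 days 2 fell and none rose, where 4.08% rose and 2.06% fell. CREM, a cAMP-responsive factor, changed by 0.23 on its brightest probe set after 6 days (adjusted p = 0.332) but rose by 0.60 on another (adjusted p = 0.008). NR5A2, a nuclear receptor that acts on steroidogenic promoters, fell by 0.71 ± 0.14 (adjusted p = 0.0026) and its other 2 tested probe sets also fell. GATA6, a zinc finger factor of steroid-producing cells, fell by 0.62 ± 0.12 (adjusted p = 0.0021). It averaged 10.78 ± 0.19 (SD, n = 4) with 6 days of hCG and 11.57 ± 0.24 (SD, n = 8) in untreated tissue. Both calls were kept in all 12 fits that left out 1 sample. Against hCG for 1 day 4 fell (NR5A1, NR5A2, GATA4 and GATA6, by 0.30 to 0.89) and 1 rose (CREM, by 0.47), where 3.18% of all genes rose and 4.51% fell. Of these 5, only GATA6 kept its call in all 8 fits that left out 1 sample. NR4A1 did not pass after 6 days or 1 day of hCG alone (-0.33 and -0.80, adjusted p = 0.52 and 0.0638). Against untreated tissue NR4A1 fell by 1.34 with TRL at day 15 (adjusted p = 0.00159, 5.29% of genes falling). With TRL and R5020 at day 10 it fell by 1.25 (adjusted p = 0.01, 0.723% falling). With TRL at day 10 and with TRL and R5020 at day 15 it did not pass.

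Of 8 tested genes for estrogen receptors and for receptor partners and targets, 1 rose after 1 day of hCG, where 4.24% of all genes rose, and none passed after 6 days, where 4.08% rose and 2.06% fell. The gene that rose is XBP1, a factor of the unfolded protein response that estrogen induces in human breast cancer cells, by 0.37 ± 0.09 (adjusted p = 0.0197, kept in 9 of 12 fits). The estrogen receptor ESR2 changed by 0.09 after 1 day and by 0.05 after 6 days (adjusted p = 0.696 and 0.867). ESR1 did not pass the filter on low values. GREB1, an estrogen target in human breast cancer cells, was 1.17 ± 0.32 lower after 6 days than after 1 day of hCG (adjusted p = 0.0263, kept in 4 of 8 fits). In the same comparison NCOA2 was 0.41 ± 0.12 higher (adjusted p = 0.0402, kept in 2 of 8 fits), while another of its probe sets changed by -0.05 (adjusted p = 0.917). There 3.18% of all genes rose and 4.51% fell.

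Several genes of peroxisomal fatty acid oxidation, the pathway of HSD17B4, rose with hCG. Of 16 tested, 4 rose and none fell after 1 day of hCG (median 0.40, against 0.06 over all genes, of which 4.24% rose and 1.28% fell), and this count was 4 in each of the 12 fits that left out 1 sample. ACSL1, which activates long-chain fatty acids, rose by 1.45 ± 0.19 (adjusted p = 0.000101), to 11.46 ± 0.13 (SD, n = 4) with 1 day of hCG, against 10.07 ± 0.29 (SD, n = 8) in untreated tissue. EHHADH, the other multifunctional enzyme for the steps that HSD17B4 catalyses, rose by 0.92 ± 0.18 (adjusted p = 0.0038). The carnitine acetyltransferase CRAT rose by 0.77 ± 0.15 (adjusted p = 0.00274) and PEX11A, a factor of peroxisome division, by 0.71 ± 0.16 (adjusted p = 0.0108). A second probe set of each of these 2 did not pass (CRAT 0.20, PEX11A 0.45).

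After 6 days 5 of the 16 rose and none fell (median 0.47, against 0.04 over all genes, of which 4.08% rose and 2.06% fell). They are ACSL1 (0.88 ± 0.19), the enoyl-CoA reductase PECR (1.01 ± 0.22), the import receptor PEX7 (0.70 ± 0.21), HACL1 of alpha-oxidation (0.50 ± 0.12) and the very-long-chain acyl-CoA synthetase SLC27A2 (2.04 ± 0.56), with adjusted p from 0.00522 to 0.0444. The count ranged from 2 to 6 when 1 sample was left out, and the fewest came without day 15 hCG replicate 2. ACSL1 passed at both times on its brightest probe set, and a second one passed after 1 day (1.53) but not after 6 days (0.75, adjusted p = 0.075). Acyl-CoA synthetases such as ACSL1 are also known outside peroxisomes. In the comparisons that added TRL or R5020, none of the genes in the 5 lists passed at either day. With TRL added to hCG, 1 of the 16 peroxisomal genes lay above 0 at day 10 (median -0.28, against -0.11 over all genes). The count was also 1 at day 15 (median -0.22, against -0.07 over all genes). The share of all genes above 0 was not counted.

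Over the 32 samples, after removal of the array set effect, the 4 of 9825 named genes most like CYP17A1 were P2RX6 (Pearson r = 0.775), ABHD3 (0.766), EPB41L4B (0.739) and SQSTM1 (0.73). These correlations are descriptions over samples that share arrays and scale. Without the 2 samples farthest from the CYP17A1 median they were 0.816, 0.765, 0.706 and 0.763. SQSTM1, an autophagy adaptor, rose by 0.93 after 6 days of hCG (adjusted p = 9.14e-05). The genes most like CYP19A1 were PPP1R21 (0.744), HADHB (0.743), FANCD2 (0.733) and MAP2K1 (0.727), and without untreated replicates 9 and 4 these were 0.537 to 0.633. Those most like HSD17B4 were KIFAP3 (0.887), BRCC3 (0.789), GLT8D1 (0.784) and RARA (0.773). Among the 3 genes, r was 0.588 between CYP17A1 and HSD17B4, 0.328 between CYP17A1 and CYP19A1 and 0.328 between CYP19A1 and HSD17B4. With group means also removed, r was 0.373 between CYP17A1 and HSD17B4, -0.01 between CYP17A1 and CYP19A1 and 0.115 between CYP19A1 and HSD17B4. For CYP17A1 with P2RX6, ABHD3, EPB41L4B and SQSTM1 it was then 0.448, 0.534, 0.507 and 0.342. The genes most like CYP19A1 had 0.66 to 0.774 and those most like HSD17B4 0.606 to 0.831.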

How the data were processed

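RNA of rhesus luteal tissue was read on 33 Affymetrix Rhesus Genome arrays of 7 groups, assigned by the sample titles. The authors deposited log2 intensities per probe set, from 2.60 to 15.12. How the authors corrected background, normalized and summarized probes is not given in the sources used here. Of 52865 probe sets 99 controls were removed. Genes were named from the platform annotation: of 28867 kept probe sets 17605 had 1 symbol, 241 several and 11021 none. Where several probe sets of a gene were kept, the brightest on average stood for the gene.

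Values were centred on each array's median (6.14 to 6.32 before centring). Limma 3.58.1 in R 4.3.3 was fitted to 32 samples with group and array set as terms (23 residual degrees of freedom) and a variance trend. Tests were two-sided, with Benjamini-Hochberg adjustment over all 28867 probe sets in each of 18 comparisons and a threshold of 0.05. A value after ± is an SE for a change and an SD for a mean. The number of arrays limits the precision. The fit was tested on simulated data.

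The members and gene lists were chosen with earlier results of these data known. From each list the genes that passed in a comparison of hCG alone, up to 4 by smallest adjusted p in each, were named. The 4 genes most correlated with each member were named too. Genes that passed only in comparisons with TRL, R5020 or all 6 hCG groups were not all named. HSD17B1, ESR2, PEX7, NR5A1, NR4A1 and the further probe sets of PAPSS2, CREM and ACSL1 were named after their values were seen. The contrast over 6 hCG groups, the fits that leave out samples for the lists and the correlations without 2 samples were added after seeing the data. Samples with the same replicate number had residual correlations from -0.562 to 0.473, so the replicate numbers were not taken to pair samples. For the day 15 groups with TRL these numbers differ in part from those in the sample titles, and pairing by title number was not tested. Alternatives changed the centring, quantile normalization, filter, array set term, replicate block, repeated arrays and probe set.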

Additional observations from a re-analysis of the deposited data

Results flagged for a closer look

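CYP19A1 in day 15 hCG replicate 2 read 12.6315, while the other samples of its group lay between 13.62 and 13.79. The gap to the nearest of them was 0.855 of the group's range, above Dixon's 95% critical value for 4 samples. It is 1 of 42 groups tested in this way over the 6 probe sets, where chance alone would mark about 2.1.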

How the results depend on the processing

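Of 232 alternative values for the 21 main results, 221 kept their direction and side of the threshold, and none of the 41 reversals over all results passed the threshold. The rise of CYP17A1 after 6 days of hCG kept its call in every alternative run. After 1 day the call was lost with quantile normalization (1.3519), with no filter (1.3847, more probe sets tested) and with a replicate block (1.4367), and ranged from 1.1663 to 1.6451 when 1 sample was left out. HSD17B4 after 6 days passed with both repeated arrays counted (0.3577) and ranged from 0.3068 to 0.4447.

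Signs turned for small changes; the cause was not tested. With no array set term these were CYP19A1 with TRL against hCG at day 15 (-0.3424), HSD17B4 in the same comparison (0.0620), CYP19A1 with R5020 against hCG at day 10 (-0.0748) and day 15 (-0.1871), and HSD17B4 with R5020 against hCG at day 10 (0.1841) and day 15 (0.0203). With set as a random block they were -0.1461 for CYP19A1 with TRL at day 15 and 0.0910 for HSD17B4 with R5020 against hCG at day 10, which was 0.0018 uncentred and 0.0234 after quantile normalization. The replicate block gave CYP17A1 0.8608 and CYP19A1 -0.2585 with TRL at day 15, CYP17A1 0.3464 and CYP19A1 -0.1031 with R5020 against hCG at day 15, HSD17B4 -0.0700 with R5020 at day 10 against untreated, and -0.0112 for its TRL effect between days. The same block ended the CYP17A1 calls for TRL at day 15 against untreated tissue (3.0723) and for the 6 hCG groups (2.1938, adjusted p = 0.528). The TRL effect of CYP17A1 between days was -0.0310 after quantile normalization and -0.0468 without the nearly identical arrays, when CYP17A1 with R5020 against hCG at day 10 was -0.0729. CYP19A1 with TRL at day 15 was -0.0009 with both repeated arrays. On the second probe set HSD17B4 was 0.0239 with TRL at day 15, -0.0006 with R5020 at day 15 against untreated and -0.0922 with R5020 between days.

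Leaving out 1 sample gave ranges across 0 for CYP19A1 at 6 days against 1 day (-0.2224 to 0.1894), with TRL at day 15 (-0.1706 to 0.2193), with TRL at day 10 against untreated (-0.1611 to 0.2752) and with R5020 against hCG at day 15 (-0.0152 to 0.3747). For CYP17A1 they were -0.7875 to 0.0930 for R5020 added at day 15, -0.2294 to 0.3518 for R5020 against hCG at day 10, -0.5600 to 0.4590 for R5020 between days and -0.2412 to 0.2966 for the TRL effect. For HSD17B4 they were -0.1118 to 0.0106 for R5020 added at day 15 and -0.1156 to 0.0305 for R5020 against hCG at day 10.

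Counts of called probe sets moved over 1.5 times in several comparisons. After 1 day of hCG the count was 673 within set 1 against 1351, and 547 without day 10 hCG replicate 3. After 6 days it was 837 without day 15 hCG replicate 4 against 1454, and 6 days against 1 day gave 865 without day 15 hCG replicate 2 against 1911. With no set term, counts were 2385 against 746 for TRL at day 10, 549 against 319 for R5020 at day 10, 1774 against 909 for R5020 at day 15 (each against untreated), 3750 against 699 for TRL between days and 128 against 0 for R5020 added at day 10. With set as a random block they were 1435 for TRL at day 10 and 1588 for R5020 at day 15 against untreated, and 1769 for TRL between days. Within 1 array set they were 465 for TRL at day 10, 130 for R5020 at day 10 and 316 for R5020 at day 15 against untreated, and 320 against 694 for R5020 between days, fewer samples being tested. Without the nearly identical arrays they were 424 for R5020 at day 15 against untreated and 336 for R5020 between days. The replicate block gave 0 for TRL at day 15, R5020 at both days and the 6 groups against untreated, and for TRL between days. For TRL added at day 10 the count was 0 to 2 under these alternatives and 129 without TRL replicate 1. For TRL added at day 15 it was up to 7, with both repeated arrays. Quantile normalization moved the split to 920 higher and 555 lower after 1 day (984 and 367 with centring), to 822 and 700 after 6 days (961 and 493), to 472 and 337 for TRL at day 10 against untreated (328 and 418) and to 336 and 444 for TRL between days (392 and 307).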
